A study of Mus musculus with 29 samples.

Results

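The Nnat and Blcap region of mouse chromosome 2 was described by DNA methylation. All CpG dinucleotides with reads between chr2:157383000-157390000 (build mm9) were taken as members, which gave 69 CpGs of the 2905654 CpGs covered in at least 1 of 29 libraries. A library held reads at 39 to 59 of the 69. The window, a boundary at position 157385800 and the 15 groups compared had been chosen from values of these same data, so levels and their differences between groups are a description and carry no test. The level of a CpG, a 500 bp bin or a longer stretch is the share of its reads that were methylated in a library, and a level needed at least 10 reads.

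Imprinted genes are expressed from 1 parental copy, and a nearby control region is often methylated on 1 of the 2 copies, so that the share of methylated reads in a diploid cell is intermediate. Nnat encodes neuronatin, a small membrane proteolipid of the brain and other tissues, and is an imprinted gene expressed from the paternal copy. It lies within an intron of Blcap, which encodes the bladder cancer associated protein. Reduced representation bisulfite sequencing (RRBS) reads the CpGs of short, CpG-rich restriction fragments. Reads here carry no parental allele.

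The promoter entries of both genes are shown because the measured CpGs were compared with them by spacing. They come from RefSeq (build GRCm38.p6), read 5′ to 3′ in the direction of the gene from 250 bases before the start, are 300 bases long, and carry each CpG in capitals.
Nnat (+ strand): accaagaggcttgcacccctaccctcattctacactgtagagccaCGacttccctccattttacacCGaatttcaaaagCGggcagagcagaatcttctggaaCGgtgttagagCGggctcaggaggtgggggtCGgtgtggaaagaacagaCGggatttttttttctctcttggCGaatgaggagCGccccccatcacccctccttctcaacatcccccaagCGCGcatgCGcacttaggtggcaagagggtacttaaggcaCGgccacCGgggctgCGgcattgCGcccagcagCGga
Blcap (- strand): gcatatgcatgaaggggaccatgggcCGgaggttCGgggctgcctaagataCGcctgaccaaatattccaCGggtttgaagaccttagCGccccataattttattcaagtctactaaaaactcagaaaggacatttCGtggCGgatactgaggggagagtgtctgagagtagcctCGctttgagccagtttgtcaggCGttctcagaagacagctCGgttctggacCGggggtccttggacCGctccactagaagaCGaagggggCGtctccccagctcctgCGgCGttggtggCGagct
Each entry holds 17 CpGs, and the GC content is 57.3% for Nnat and 55.3% for Blcap. Because the files are on mm9 and no mm9 annotation was used here, the Nnat entry was placed by the spacing of its CpGs. All 6 covered CpGs under its best placement fell on CpGs of the entry, against 3 for the next best, and this placement sets the Nnat start from which distances are counted below. The Blcap entry gave no such placement, with 2 matches in each of the best placements, so no CpG is assigned to the Blcap start. CpGs were not assigned to exons, introns or UTRs. The hexamer TGCCGC, which the zinc finger protein ZFP57 binds when methylated, was searched on both strands. The Nnat entry held it 1 time, on the minus strand at +28, and the Blcap entry held 0, where 11.6% of 32851 RefSeq promoter entries hold it. CCGG, the site of MspI, the usual RRBS enzyme, occurred 1 time in the Nnat entry at +20 and 2 times in the Blcap entry, and 52.8% of all entries hold it. The 2 motifs do not overlap in the Nnat entry.

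The series followed 3 lines of embryonic stem cells (ESCs), all male and named J-34, J-35 and also J-37, through culture media with leukaemia inhibitory factor (L). S/L contains serum. 2i/L is known as a medium in which Mek1/2 and Gsk3 are inhibited. The labels give no composition of a2i/L and PKCi/L. Cells entered a medium at passage 4 and were collected after 6 passages (p10) or 16 passages (p20). The S/L and 2i/L groups of both passages had 3 libraries each, 1 per line. Cells returned from 2i/L to S/L after 16 passages were collected 3 passages later (p23, 3 lines) or 10 passages later (p30, 2 libraries). a2i/L p20 and PKCi/L p20 had 2 libraries each (J-34 and J-35), a2i/L p10 had 1 (J-34) and PKCi/L p10 had 1 (J-35). Single J-34 libraries were treated for 6 passages with CHIR or with PD, usual short names of a Gsk3 inhibitor and a Mek1/2 inhibitor. The Mek1/2 double knockout (Mek1/2 DKO) was 1 library of clonal male induced pluripotent stem cells, reprogrammed from Mek1fl/fl;Mek2-/- fibroblasts, treated with Cre recombinase and kept in S/L on fibroblast feeders. Its cell type label names the fibroblasts. Neonatal keratinocytes, an epidermal cell type, gave 1 wild-type library (female) and 2 libraries labelled 2i/L keratinocytes (male), whose route from 2i/L is not stated in the labels. Replicates of an ESC group are different lines.

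Summed over CpGs, depth ran from 8359802 reads (wild-type keratinocytes) to 22433006 reads. One p30 library is J-35 in its title and J-34 in its cell type and protocol labels. It is called J-35 here, and statements about its line rest on that title. Libraries also differed in which CpGs they covered: 7 CpGs of the window had reads in at least 4 of the 9 libraries of p30, a2i/L p20, keratinocytes or PKCi/L p20 and in no other library. A further 4 CpGs had reads in at least 4 of these 9 and at least 4 of the 9 libraries of p23, S/L p20 and 2i/L p20, and in none of the 11 others, which are those of p10, CHIR, PD and the Mek1/2 DKO, so p10 and p20 levels do not rest on the same CpGs. Their part in differences between these and other groups was not tested beyond the recount on shared CpGs given at the end. That recount holds no comparison of p10 with p20, and none with CHIR, PD, the Mek1/2 DKO or keratinocytes. Methylation files hold no expression, so cell identity was not checked by markers.

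The covered CpGs lay in 4 runs parted by gaps of 1255, 441 and 903 bp. These runs were defined after the values had been seen. The far upstream run (chr2:157383377-157384039, 12 CpGs) spans -2437 to -1775 from the Nnat start, and the near upstream run (chr2:157385294-157385354, 7 CpGs) spans -520 to -460. The start-site run (chr2:157385795-157386255, 29 CpGs) spans -19 to +442, and the downstream run (chr2:157387158-157388071, 21 CpGs) spans +1345 to +2258. A library had a median of 24, 16, 39 and 43 distinct reads in the 4 runs in that order, counting the deepest CpG of each stretch, and at least 6. Wilson 95% intervals for single libraries use these distinct reads and cover counting error only.

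In S/L the far upstream run was mostly methylated, and the other 3 runs were intermediate. At p20 the far upstream level was 83.6% in J-34, 65.4% in J-35 and 74.7% in J-37 (mean 74.6% ± 9.12, SD, n = 3). The start-site level in the same libraries was 38.0%, 31.8% and 33.8% (mean 34.5% ± 3.18, SD, n = 3). All 3 lines thus had a higher share far upstream than at the start, by 33.6 to 45.6 percentage points. The near upstream run stood at 59.4%, 44.3% and 58.7% (mean 54.1% ± 8.52, SD, n = 3) and the downstream run at 34.4%, 43.1% and 43.8% (mean 40.5% ± 5.23, SD, n = 3). At p10 the means were 84.3% ± 3.14 far upstream, 46.9% ± 7.20 near upstream, 41.9% ± 7.33 at the start and 39.3% ± 9.22 downstream (SD, n = 3 each). The p10 and p20 libraries overlapped in every run. Within J-34, J-35 and J-37, p20 less p10 was -2.09, -21.1 and -6.035 percentage points far upstream and -9.27, -1.78 and -11.0 at the start. Near upstream and downstream the lines differed in direction.

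In the plot of CpG methylation against distance, reads were summed over the libraries of a group and CpGs with 10 or more summed reads are shown. In S/L p20 the 5 CpGs of the near upstream run lay within 52.4 to 57.1%. The 18 CpGs at the start were more uneven, from 11.5 to 57.1% with a median of 37.5%.

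**Figure D1:**
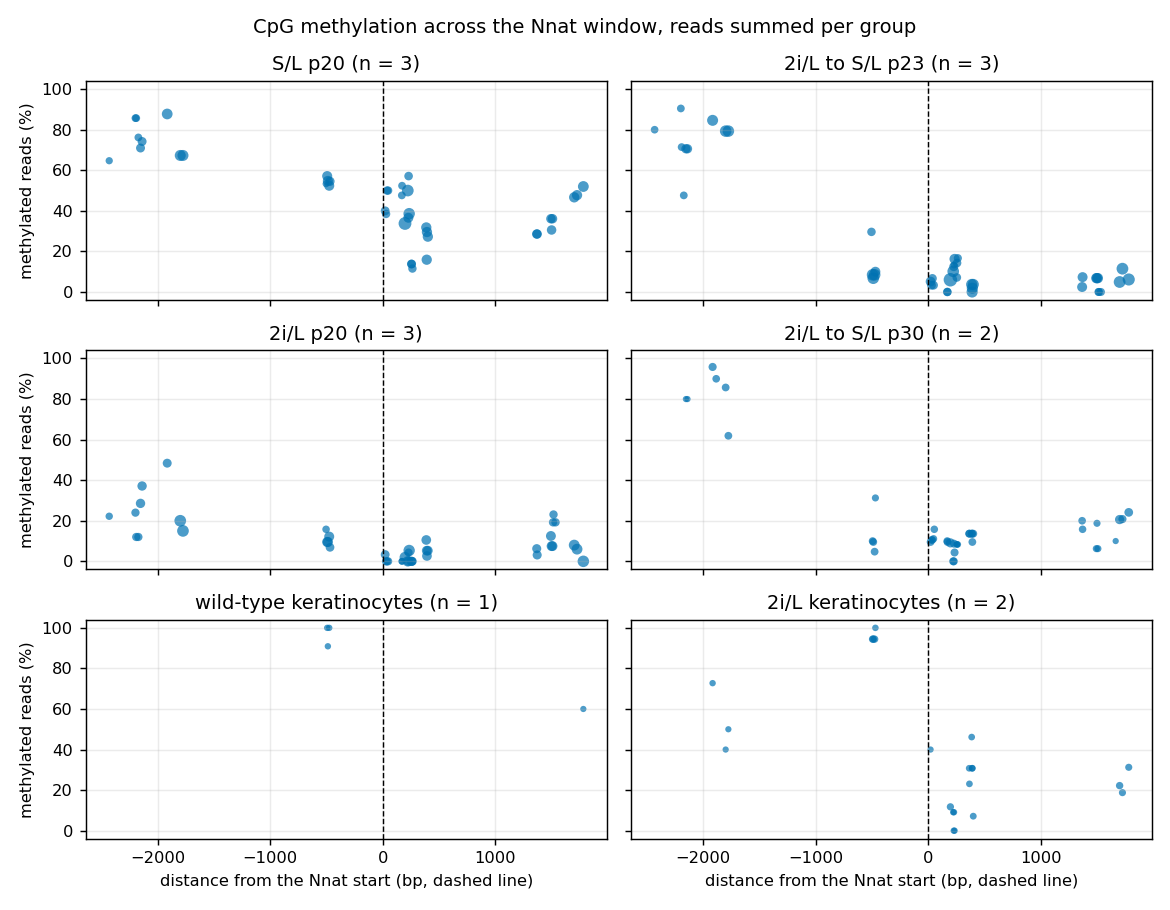
Methylation of single CpGs (share of methylated reads, %, y axis) against distance from the Nnat start (bp, x axis) in 6 groups, with reads summed over the libraries of a group. Points are CpGs with at least 10 summed reads and grow with read number. The CpGs from -2437 to -1775 are mostly high in S/L p20, p23 and p30, whereas those from -520 onwards are mostly intermediate in S/L p20 and at most 31.3% in p23 and p30.

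All 4 runs were lower in 2i/L than in S/L. At p20 the start-site level was 4.00% in J-34, 2.76% in J-35 and 1.27% in J-37 (mean 2.68% ± 1.37, SD, n = 3), 31.8 percentage points below S/L p20 in means, with no overlap between the groups. The near upstream level was 23.5%, 4.35% and 0% (mean 9.29% ± 12.5, SD, n = 3). The 0% in J-37 rested on 65 CpG readings from 16 distinct reads, which allow a level of up to 18.8% (3 counts). J-34 stood above the other 2 lines near upstream, although its interval (10.2 to 49.5) overlapped theirs.

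The downstream run was at 11.8%, 11.9% and 2.99% in 2i/L p20 (mean 8.93% ± 5.15, SD, n = 3). The far upstream run was at 36.6% in J-34, 22.5% in J-35 and 7.45% in J-37 (mean 22.2% ± 14.6, SD, n = 3). J-37 was the lowest line in every run. Over all CpGs of a library the methylated share was also lowest in J-37, at 8.81% against 15.3% in J-34 and 12.3% in J-35, and its part in the order seen in the window was not tested.

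At p10, after 6 passages, the 2i/L levels were 40.03% ± 12.9 far upstream, 20.6% ± 5.65 near upstream, 17.6% ± 7.20 at the start and 15.02% ± 2.55 downstream (SD, n = 3 each), and none of the runs overlapped S/L p10. From p10 to p20 the 2i/L mean at the start fell by 14.95 percentage points and was lower in 3 of 3 lines, with no overlap. The downstream mean fell by 6.09 points, also without overlap, but the lowest p10 library (12.7%) was close to the highest p20 library (11.95%). Within that run the bin at 157387500 went from 19.1 to 4.24%, whereas the bin at 157387000 went from 9.81 to 11.1%. The p10 and p20 libraries of 2i/L overlapped in both upstream runs. None of these changes from p10 to p20 was recounted on CpGs shared by both passages. Far upstream at p10 the summed reads gave a difference of -44.3 percentage points, and 1 CpG per stretch gave -58.8. The CpG taken was the one read most over all libraries, and -58.8 depends on that choice. In the last stretch it was 157384039 (24.0% of summed 2i/L p10 reads) and not 157383899 (76.7%). With the CpG chosen within each group, 2i/L p10 lay at 50 to 52.9% and S/L p10 at 75 to 88.2%, on different CpGs. A mean over CpGs with 10 or more reads gave -10.5, but in 2i/L p10 that mean held 1 CpG of 1 library (157383899 in J-34), so it does not describe the run.

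After the return to S/L the far upstream run was again methylated as in S/L, and the other 3 runs stayed low. The far upstream level at p23 was 71.1% in J-34, 79.0% in J-35 and 81.0% in J-37 (mean 77.0% ± 5.22, SD, n = 3). These libraries lay 34.4 to 73.5 percentage points above their own line in 2i/L p20 and overlapped those of S/L p20. The start-site level at p23 was 10.4%, 5% and 4.35% in the same lines (mean 6.58% ± 3.32, SD, n = 3).

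Those start-site values were above 2i/L p20 by 2.24 to 6.40 percentage points in 3 of 3 lines and below S/L p20 by 26.8 to 29.4 points, without overlap in either case. With 1 CpG per stretch, so that a read counts 1 time, the p23 and 2i/L p20 libraries lay at 4.35 to 6.25% and 2.38 to 11.4% at the start. That CpG was the one read most within each group, so the 2 ranges do not rest on the same CpGs and cannot decide overlap. In the stretch holding 157386047 it was that CpG in 2i/L p20 and 157386010 in p23. Summed p23 reads gave 16.3% at 157386047 and 6.02% at 157386010. The near upstream run at p23 was at 18.3%, 14.3% and 3.70% (mean 12.1% ± 7.55, SD, n = 3) and the downstream run at 10.9%, 2.91% and 6.28% (mean 6.68% ± 3.99, SD, n = 3). Both overlapped 2i/L p20 and lay below every S/L p20 library. The difference between the far upstream and start-site runs, 40.04 ± 6.04 percentage points in S/L p20, was 70.4 ± 8.53 in p23 (SD, n = 3 each).

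At p30 the same arrangement was seen. In that group the far upstream level was 85.3% in J-35 and 78.5% in J-37. Their mean was 81.9% with summed reads and 70.2% with the CpG of each stretch read most over all libraries. The start-site level was 11% and 8.04%, and the near upstream level was 20.4% and 0%, where 9 distinct reads allow up to 33.3% for the latter. The downstream run reached 20.2% and 13.0%, above all 3 p23 libraries and below all 3 S/L p20 libraries. At the start and near upstream the p30 libraries overlapped those of p23.

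**Figure D2:**
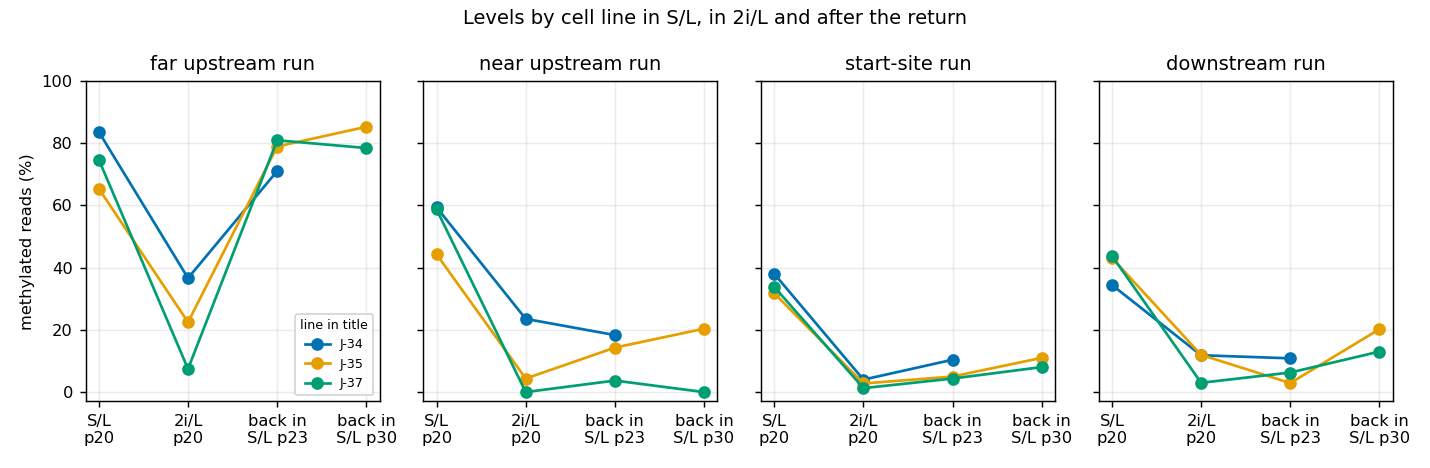
Share of methylated reads (%, y axis) in the 4 runs for each line in S/L p20, 2i/L p20 and after the return at p23 and p30 (x axis). Each point is 1 library and lines join libraries of 1 cell line as titled. The far upstream run returned to 71.1 to 85.3%, whereas no library of p23 or p30 exceeded 20.4% in the other runs.

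The genome-wide 500 bp bins give the setting for this. Of the bins measured in all 21 libraries of the replicated ESC groups, 15623 had, like the Nnat start, a mean of 30 to 70% for S/L at p20 and of 20% or less for 2i/L at p20. Their median level at p23 was 58.3% (quartiles 48.6 and 66.9%), and 28 of them (0.179%) stayed at 15% or less. The window held 6 of the 15623 bins, and 5 of those 6 were among the 28. At p30 the median was 65.3%, 47 bins (0.301%) were at 15% or less, and 4 of the 6 window bins were among them. The window was chosen on such values, so these shares describe it and test nothing. The 5 bins lay at 12.1% (starting at 157385000), 5.01% (157385500), 7.45% (157386000), 5.88% (157387000) and 7.51% (157387500) in p23. The sixth, far upstream at 157384000, was at 79.0%. The other far upstream bin, at 157383500, was outside the set with 79.3% for S/L at p20, and went from 26.7% in 2i/L p20 to 74.7% in p23.

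**Figure D3:**
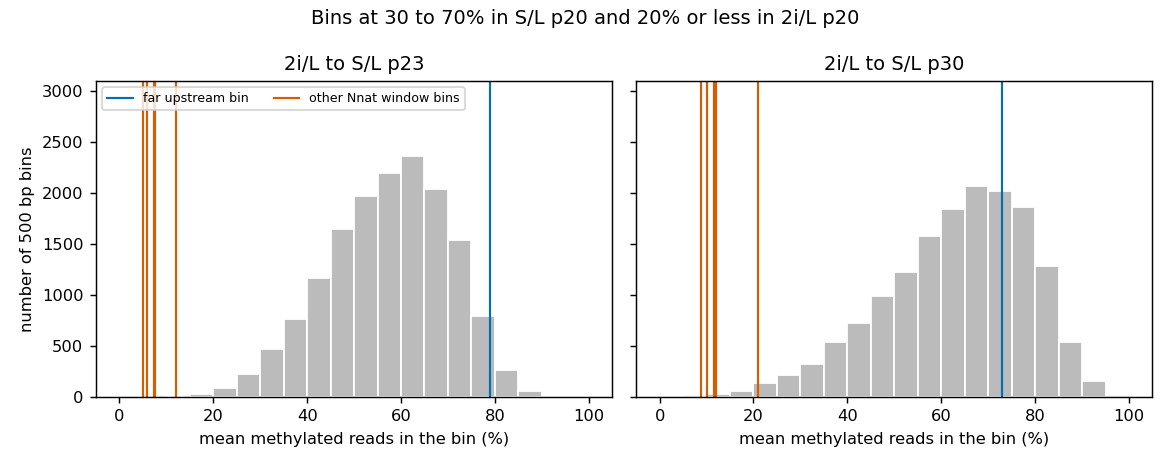
Number of 500 bp bins (y axis) by mean level at p23 (left) and p30 (right) (%, x axis) among the 15623 bins at 30 to 70% for S/L at p20 and 20% or less for 2i/L at p20. Vertical lines mark the 6 bins of the Nnat window. The far upstream bin lies within the bulk and the other 5 lie at or beyond its lower edge.

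A limma fit across 121370 bins gave the background for calls (Benjamini-Hochberg adjusted p under 0.05, with group means 20 or more percentage points apart). Between 2i/L p20 and S/L p20, 7 of the 7 window bins were called lower and 0 higher, where 58% of all bins were called lower and 0.00412% higher. Between 2i/L p10 and S/L p10, 6 of 7 were called lower against 61.3% of all bins, and 0 higher against 0.00165%. That count fell to 3 without 2i/L p10 J-34, and to 4 without S/L p10 J-35 or S/L p10 J-37. Between p23 and 2i/L p20, 2 of 7 were called higher against 63% of all bins, and these were the 2 far upstream bins. Between p23 and S/L p20, the other 5 were called lower against 0.487% of all bins, and 0 higher against 0.659%. For p30 against S/L p20 the counts were 3 of 7 lower against 0.116% and 0 higher against 3.8%. The rule had used these contrasts, so nothing is read from the counts. Leaving out p23 J-35 or p23 J-37 reduced the 5 to 2, and leaving out any 1 S/L p20 library reduced it to 3. The p30 count fell to 0 without p30 J-37, to 1 without p30 J-35 or S/L p20 J-34, and to 2 without S/L p20 J-35 or S/L p20 J-37. For a2i/L p20 and PKCi/L p20 against S/L p20 no window bin was called in either direction, where 6.94% and 5.86% of all bins were called higher and 0.209% and 0.0742% lower. The comparisons with S/L p20 share its 3 libraries.

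The a2i/L and PKCi/L groups had intermediate levels at the start. In a2i/L p20 the start-site level was 46.7% in J-34 and 32.5% in J-35, and in PKCi/L p20 it was 32.9% and 28.5%. Both groups overlapped S/L p20. The single libraries of a2i/L p10 (35.8%, 95% interval 23.6 to 51.9) and PKCi/L p10 (42.3%, 28.0 to 59.1) lay within the range of S/L p10. Downstream, PKCi/L p20 was at 38.7% in J-34, within the range of S/L p20, and at 18.7% in J-35, below it. Over all CpGs after the boundary, PKCi/L p20 (34.8% in J-34 and 25.5% in J-35) lay below every S/L p20 library (35.6 to 37.4%), whereas a2i/L p20 overlapped them. The J-34 value (95% interval 24.2 to 46.0) was almost level with the lowest of these. PKCi/L p20 less S/L p20 was -2.06 percentage points in J-34 and -10.2 in J-35. Near upstream, PKCi/L p10 was at 28.4% (14.3 to 47.6), under all 3 S/L p10 libraries. Far upstream, the 2 libraries each of a2i/L p20 (88.9% and 89.6%) and PKCi/L p20 (88.9% and 83.6%) were above all S/L p20 libraries, although the last was almost level with J-34 in S/L p20 at 83.6%.

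The separate inhibitors gave different levels in J-34. With CHIR the start-site level was 42.7% (29.5 to 56.7) and with PD it was 5.51% (1.66 to 13.3), compared with 47.3% (30 to 66.5) for J-34 in S/L p10. The downstream run was at 49.3% (32.6 to 67.4) with CHIR and 5.26% (1.17 to 14.2) with PD. Far upstream the levels were 88.7% (73.6 to 96.4) and 26.9% (15.1 to 44.2). In these 3 runs the intervals of the 2 libraries did not overlap. Near upstream they did, at 38.5% (16.3 to 61.2) with CHIR and 20.6% (10.6 to 40.8) with PD. Neither treatment had a replicate.

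The Mek1/2 DKO cells, which lack both Mek kinases and grew in S/L, were almost unmethylated throughout the window. The levels were 6.67% (1.91 to 22) far upstream, 3.13% (0.682 to 18.9) near upstream, 0.521% (0 to 7.27) at the start and 1.91% (0.354 to 10.5) downstream. Each was below every S/L library. Clone, reprogramming and genotype cannot be told apart in this 1 library.

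**Figure D4:**
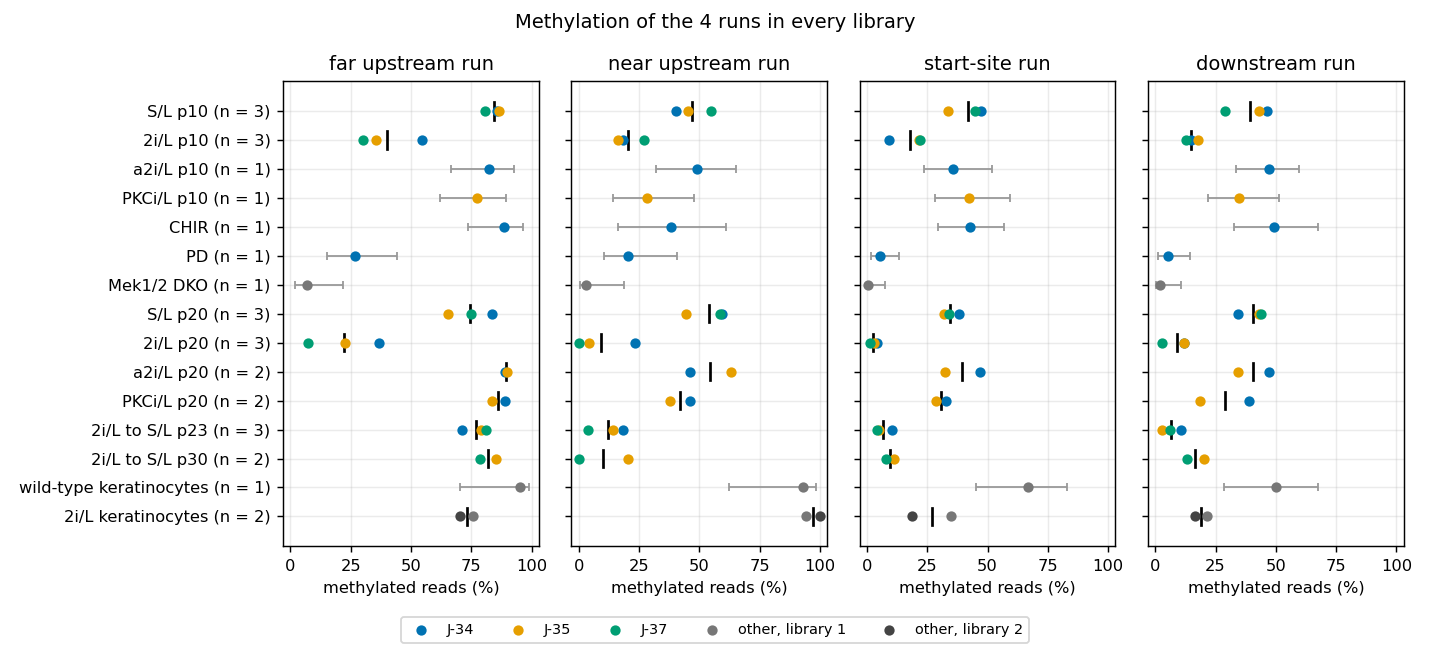
Share of methylated reads (%, x axis) in the 4 runs for all 29 libraries by group (y axis). Points are libraries coloured by line, vertical bars are means of groups with 2 or 3 libraries, and horizontal bars are Wilson 95% intervals of single libraries. At the start the PD, Mek1/2 DKO, 2i/L p20, p23 and p30 libraries all lie at 11% or less.

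The keratinocyte libraries differed from ESCs near upstream and from each other from the start onwards. The near upstream run was at 93.2% (62.3 to 98.4) in wild-type keratinocytes and at 94.2% and 100% in the 2 libraries of 2i/L keratinocytes, above every ESC library. At the start the wild-type library was at 66.7% (45.4 to 82.8) and the 2i/L keratinocytes at 35.04% (19.7 to 57.0) and 18.5% (8.51 to 43.3). Downstream the values were 50.0% (28.3 to 67.6) against 21.6% (9.56 to 47.3) and 16.3% (4.01 to 39.9).

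Both 2i/L keratinocyte libraries lay below the wild type in the start-site and downstream runs, with intervals that overlapped its interval except for the second library at the start. The far upstream run was at 95.2% (70.2 to 98.8) in the wild type and at 75.9% (35.9 to 91.8) and 70.5% (45.4 to 88.3) in the 2i/L keratinocytes. These libraries were shallow here, with 6 to 22 distinct reads per run, and no CpG of the second 2i/L keratinocyte library reached 10 reads. With 1 wild-type library no difference could be tested, and sex and history cannot be told apart.

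In the order of the 15 groups at the start, the wild-type keratinocytes were highest, followed by CHIR, PKCi/L p10, S/L p10, a2i/L p20, a2i/L p10, S/L p20, PKCi/L p20, 2i/L keratinocytes, 2i/L p10, p30, p23, PD, 2i/L p20 and the Mek1/2 DKO. From PKCi/L p10 to PD each neighbour in this order overlapped the next. The 2 single libraries of CHIR and PKCi/L p10 had overlapping intervals. Far upstream, p30 ranked 7 and p23 ranked 9 of the 15 groups, between S/L p10 and S/L p20.

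Single CpGs were named by how many libraries read them 10 or more times. At 157384015 (-1799, far upstream) S/L p20 gave 77.3%, 35.7% and 81.2%, 2i/L p20 gave 32.0%, 23.5% and 0%, and p23 gave 77.3%, 81.2% and 80.0% in J-34, J-35 and J-37. The low S/L p20 value was that of J-35. At 157385320 (-494, near upstream) the same groups gave 60%, 50% and 63.6%, then 25.0%, 0% and 0%, then 14.3%, 15.8% and 0%. All 3 p23 libraries lay below all 3 S/L p20 libraries there.

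At 157386035 (+222) S/L p20 gave 65.0%, 44.4% and 40.9%, p23 gave 15.8%, 0% and 12.5%, and all 3 libraries of 2i/L p20 and both of p30 had 0 methylated reads of 11 to 19. A count of 0 at 11 reads allows a level of up to 27.3% (3 counts). At 157387594 (+1781, downstream) S/L p20 gave 36.8%, 56.2% and 66.7% and p23 gave 5.26%, 4.76% and 8%. The p30 libraries were higher at this CpG, at 25.0% and 23.5%, after 0% in all 3 2i/L p20 libraries. Means at p23 of the other named CpGs were as follows. Far upstream, 157384039 (-1775) had a p23 mean of 78.5% ± 8.61. Near upstream, 157385326 (-488) and 157385338 (-476) had p23 means of 8.27% ± 7.41 and 10.7% ± 10.7. At the start, 157386047 (+234) had 16.9% ± 6.99 and was above the start-site level of its library in all 3 lines. Downstream, 157387513 (+1700) and 157387538 (+1725) had 5.50% ± 6.38 and 12.2% ± 8.01 (SD, n = 3 each).

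The CpG inside the TGCCGC match, 157385842 (+29), was shallow, and its summed reads were methylated in 10 of 26 for S/L at p20, 0 of 25 for 2i/L at p20, 1 of 30 in p23 and 2 of 19 in p30.

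Split at the boundary of the rule instead of by runs, the 20 CpGs before it and the 49 after it gave 66.8% ± 9.18 and 36.6% ± 0.917 for S/L at p20, 17.6% ± 13.9 and 5.53% ± 3.17 in 2i/L p20, and 47.5% ± 8.75 and 6.61% ± 3.47 in p23 (SD, n = 3 each). The p30 libraries were at 50.0% and 56.6% before and at 9.86% and 13.8% after. The levels before the boundary sum the far and near upstream runs, which differed after the return, and so depend on how many reads each run received. For p30 less S/L p20 before the boundary, summed reads gave -13.6 percentage points. A mean over CpGs with 10 or more reads gave +5.38 and the shared CpGs gave +6.46, but the shared set was 1 far upstream CpG, 157383899, which was also the single CpG of p30 J-37 in that mean. Neither value therefore holds the near upstream run of p30 J-37.

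Spread within groups had not been used to choose the window. Libraries of a group were compared by an exact test of methylated and unmethylated reads, for 9 groups and both sides of the boundary. The test used 1 CpG per stretch, the one read most in that group, so that a read counts 1 time. Of 18 tests, 1 had an adjusted p under 0.05: 2i/L p20 before the boundary, where the 3 lines ran from 4.26 to 31.7% (two-sided exact test, Benjamini-Hochberg adjusted p = 0.0149). The same test by run, added later, gave 0 of 36. These tests compare libraries by counting error only.

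Bins elsewhere were ranked by likeness to the window over all 15 group means, among 102070 bins with at least 10 reads in every library. Against the segment before the boundary, the closest were chr8:73141500-73141999, chr2:26657500-26657999, chr7:52116500-52116999, chr7:51722000-51722499 and chr7:52350500-52350999, with root mean square differences of 4.68 to 6.42 percentage points. These 5 bins stood at 48.3 to 63.3% for S/L at p20, 18.0 to 24.6% for 2i/L at p20 and 48.6 to 56.8% for p23. Promoter entries were placed by CpG spacing within 2000 bp of a bin, with at least 6 matching CpGs. For chr7:51722000-51722499 this gave Gm31649 (7 CpGs, overlapping the bin) and Josd2 (7 CpGs, beside it), and the others matched no entry.

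Against the start-site run, a comparison added later, the closest were chr2:174125000-174125499, chr10:12810500-12810999, chr11:22874000-22874499, chr11:22871500-22871999 and chr11:11925500-11925999, at 8.11 to 8.80 points. By CpG spacing the promoter entries of Plagl1 (17 CpGs) and Hymai (18 CpGs) overlapped the chromosome 10 bin, and that of Zrsr1 (8 CpGs) overlapped chr11:22871500-22871999. The Commd1 entry (11 CpGs) was placed near chr11:22871500-22871999 and chr11:22874000-22874499 but overlapped neither. The chromosome 2 bin and chr11:11925500-11925999 matched no entry, so no gene was assigned to them. Whether they lie in imprinted regions was not checked. Plagl1 and Zrsr1 are known as imprinted genes. The 5 bins stood at 34.5 to 49.3% for S/L at p20, at 6.65 to 12.3% for 2i/L at p20 and at 7.23 to 13.5% for p23. Against the near upstream run, also added later, the 5 closest bins lay at 8.48 to 11.2 points and stood at 13.5 to 31.5% for p23. No promoter entry overlapped any of those bins. The rankings used the group means themselves, so the match over groups is a description.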

How the data were processed

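RRBS libraries of 29 mouse samples were analysed. Per the labels' protocols, libraries came from a commercial kit, bisulfite conversion followed the pooling of 12 barcoded reactions, and sequencing was on an Illumina HiSeq2500. Per the submitters' processing notes, BSMAP 2.89 and mm9 were used, with read filters and conversion rates not given in sources used here. The authors deposited 1 list of CpGs per library with methylated over all reads as text, and a per-CpG score, which in all lines was the share times 1000 without decimals. The window, groups, lists and named bins were chosen with earlier results of these data known. Named were all 500 bp bins of the window with 10 reads in 15 libraries, the 5 best covered CpGs on each side of the boundary, and the 5 bins most alike.

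Reads were summed per library and stretch (Python 3.11.15, scipy 1.17.1). CpGs on 1 read share it, so summed readings are not independent molecules, and reads carry no molecular identifiers. Intervals and floors (3 counts for a count of 0) cover counting error only. Genome-wide, limma 3.58.1 in R 4.3.3 was fitted to log2((methylated + 1)/(unmethylated + 1)) of 121370 bins of 500 bp with 10 or more reads in all 21 libraries of 8 replicated ESC groups, two-sided, with Benjamini-Hochberg adjustment. The counts were recorded under a unit other than counts, so no count tool was used. A quasi-binomial model and the alternatives listed at the end were also run. On simulated data for 2i/L p10 against S/L p10 over 121370 bins, 200 bins were changed, split evenly between 40-point and 60-point changes. Of the 40-point bins limma recovered 9% and of the 60-point bins 81%, with 6 false calls. In the data 61.3% of bins were called lower in this comparison, a far larger share than was changed, so the recovery there can differ. Replicates of ESC groups are lines, and the labels do not say whether cultures of 1 line were otherwise separate; p-values measure the spread between these libraries. The same line numbers pair libraries by design. The correlation of deviations between libraries of the same line was 0.00972 on average (-0.022 to 0.0753, 30 pairs).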

Additional observations from a re-analysis of the deposited data

How the results depend on the processing

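With the line as a replicate block, the difference of p30 from S/L p20 was -9.47 percentage points before the boundary (-18.5 with the line of the cell type label). The block changed no count of called bins in the window. Direction was checked only where the libraries of the 2 groups compared did not overlap. Of 200 values of the differences under other settings, 185 moved by less than the larger SD of the 2 groups, 13 moved by more and 2 reversed. The 2 were p30 less S/L p20 before the boundary, +5.38 as a mean over CpGs and +6.46 over shared CpGs, where the shared set and the CpGs of p30 J-37 were 1 far upstream CpG, so this is no reversal of the whole segment. It was -23.8 with the boundary 200 bp later. Levels before the boundary moved with a mean over CpGs in S/L p10 (56.9%), PKCi/L p20 (54.1%), p30 (73.0%) and 2i/L keratinocytes (91.7%). They moved over shared CpGs in S/L p10 (43.5%), 2i/L p10 (20.6%), PKCi/L p20 (51.4%) and p30 (95.5%). The shared CpGs of both p10 groups (2 and 5) were all near upstream, and the mean over CpGs of 2i/L keratinocytes held 1 library. With 1 CpG per stretch they moved in S/L p10 (67.1%), p30 (47.7%) and 2i/L keratinocytes (78.2%), and with the boundary 200 bp later in S/L p10 (60.9%), PKCi/L p20 (50.8%), p23 (37.2%), p30 (37.3%) and 2i/L keratinocytes (74.0%). After the boundary, PKCi/L p10 was 27.1% and p30 15.6% with 1 CpG per stretch, and S/L p20 35.1% with the later boundary. Of 287 values of the levels in the 4 runs under other settings, 19 moved. Far upstream, 1 CpG per stretch gave 22.3% in 2i/L p10, 70.2% in p30, 81.7% in PKCi/L p20 and 54.55% in 2i/L keratinocytes. Summed reads gave 40.03%, 81.9%, 86.3% and 73.2% in the same order. For p30 far upstream a mean over CpGs gave 89.1% and the 1 shared CpG 95.5%. The 2i/L p10 loss was -33.3 (mean over CpGs) and -21.2 (shared CpGs) before the boundary, -18.4 after it (shared CpGs), -10.5 (mean over CpGs, with 1 CpG of 1 library in 2i/L p10) and -58.8 (1 CpG per stretch) far upstream and -19.1 (1 CpG per stretch) near upstream. The start-site loss at p20 was -28.7 over shared CpGs and -28.5 with 1 CpG per stretch. Over shared CpGs, PKCi/L p20 less S/L p20 was -0.0924 at the start, and downstream p23 was +3.43 from 2i/L p20 and -41.0 from S/L p20. The value of +3.43 was a change of sign, from -2.245 with summed reads, between groups whose libraries overlapped. After the boundary p30 less S/L p20 was -21.5 with 1 CpG per stretch. Here 1 CpG per stretch means the CpG read most over all libraries, whereas the spread tests took the CpG read most within each group. The cause of these moves was not tested.

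Of all bins, 1.15% were called in either direction between p23 and S/L p20, 3.94% by the quasi-binomial model and 0.229% with a log offset of 0.5; the p30 share of 3.91% became 6.03% and 2.26%. Leaving out 1 library gave 0.164 to 0.506% for p23, 0.849 to 2.62% for p30, 2.88 to 5.45% for a2i/L p20 and 1.68 to 4.38% for PKCi/L p20. In the window, the offset of 0.5 left 2 called bins for p23 less S/L p20 (5 otherwise), 1 for p30 less S/L p20 (3 otherwise), 4 for the 2i/L loss at p10 (6 otherwise) and 6 for that at p20 (7 otherwise). The quasi-binomial model gave 5, 4, 6 and 7. With a minimum of 20 reads 3 window bins were tested, of which 3, 2, 2 and 3 were called in these comparisons, and 0 for p23 less 2i/L p20 (2 otherwise). With 1000 bp bins 5 were tested, of which 3, 2, 5 and 5 were called. Keratinocyte levels and single CpGs are limited by depth.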
